A study of Mus musculus with 12 samples.

Results

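The transcripts of 6 genes that build or modify the extracellular matrix were followed in the mouse oviduct: the matrix glycoproteins fibronectin 1 (Fn1), laminin α4 (Lama4) and fibulin 2 (Fbln2), and the sulfotransferases Chst11, Chst15 and Hs3st3a1. They were chosen by symbol from the study's supplementary list of changed genes, a choice made with their values in all 4 groups known. They are 6 of the 1997 listed rows that could be located in all arrays, out of 45101 probe sets on the array. The study asked how loss of estrogen receptor α (ESR1) alters oviductal gene expression in immature C57BL/6 females with and without gonadotropin. Whole-oviduct RNA was hybridized to Affymetrix whole-genome mouse arrays, with 3 arrays in each of 4 groups and 3 to 4 mice pooled per array. PMSG-treated ESR1KO and PMSG-treated WT females received 5 IU of pregnant mare serum gonadotropin (PMSG) at 23 days of age and were killed 48 h later. Untreated ESR1KO and WT females were killed at 23 days of age. PMSG and the added 48 h of age therefore cannot be told apart. ESR1KO females were ESR1-/- and WT females were ESR1flox/- siblings, each with or without Zp3Cre, a Cre driven by an oocyte promoter. The WT controls thus carried 1 deleted copy of Esr1.

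Fibronectin is secreted as a dimer and is pulled into fibrils by integrins on the cell surface. Laminins form the sheet-like network of basement membranes, and fibulins bind both networks and elastic fibres. Sulfotransferases work in the Golgi, where they place sulfate groups on the chondroitin and heparan chains of proteoglycans. The pattern of sulfate sets which growth factors and adhesion proteins those chains can bind. PMSG makes ovarian follicles grow and secrete estradiol, and the oviduct's secretory cells, stroma and muscle carry ESR1.

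RefSeq promoter windows of build GRCm38.p6, covering the 250 bases before each annotated start, were matched for 4 of the 6 genes, with 2 starts for Chst15. Fn1 and Lama4 were not matched. The windows of Fbln2, Chst11 and Chst15 are shown because these genes gave the widest PMSG difference in WT, the genotype difference with the least spread between arrays, and a genotype difference of opposite sign. They are written 5′ to 3′ on the gene's strand, and capitals mark the motif matches described after them.
Fbln2, chr6:91212514-91212763, plus strand: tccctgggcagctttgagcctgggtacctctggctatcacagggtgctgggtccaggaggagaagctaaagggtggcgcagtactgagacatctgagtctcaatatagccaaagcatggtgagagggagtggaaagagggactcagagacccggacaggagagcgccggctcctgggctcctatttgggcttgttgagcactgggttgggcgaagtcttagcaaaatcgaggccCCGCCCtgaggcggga
Chst11, chr10:82985247-82985496, plus strand: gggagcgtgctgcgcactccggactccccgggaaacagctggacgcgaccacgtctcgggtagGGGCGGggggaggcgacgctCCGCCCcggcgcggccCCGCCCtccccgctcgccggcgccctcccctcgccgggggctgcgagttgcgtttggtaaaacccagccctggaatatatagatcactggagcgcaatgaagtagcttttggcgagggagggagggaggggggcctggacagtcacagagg
Chst15, first start, chr7:132317229-132317478, minus strand: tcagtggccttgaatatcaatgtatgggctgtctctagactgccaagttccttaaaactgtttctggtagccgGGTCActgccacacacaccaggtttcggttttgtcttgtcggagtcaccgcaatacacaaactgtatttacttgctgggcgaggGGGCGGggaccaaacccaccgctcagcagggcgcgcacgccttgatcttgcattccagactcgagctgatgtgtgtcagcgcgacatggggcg

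Both strands were searched for 6 motifs. The full estrogen response element GGTCANNNTGACC was in none of the 5 windows of these genes and in 0.0639% of all 32851 windows. A single arm of it, GGTCA, lay at bases -177 to -173 of the first Chst15 start, a motif found in 35.2% of all windows. The GC box GGGCGG had 3 matches in Chst11 and 1 in each of the other 4 windows, and 32.7% of all windows held it. Hs3st3a1 also held the cAMP response element TGACGTCA at bases -83 to -76, which 1.55% of all windows contained. The AP-1 site TGANTCA and the TATA box TATAAA, present in 6.75% and 12.4% of all windows, were in none of the 5. A match of letters is a description and does not show that a factor binds there.

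All values below are log2 signals as deposited, so a difference of 1 is a 2-fold difference. Errors are SD over 3 arrays for means and limma standard errors (SE) for differences. A row was called at a Benjamini-Hochberg adjusted p under 0.05 by limma with at least a 2-fold difference. Because the values of these genes chose them, their differences are given without p-values. Means under 4 are called near background, a range that held about 42% of the signals on every array. Array medians ran only from 5.63 to 5.75. Markers fixed for the tissue were read in the untreated ESR1KO arrays, where all 5 ciliated cell, all 6 smooth muscle and 3 of 4 secretory cell markers were above background. Of 4 ovarian follicle markers, Amh, Fshr and Zp3 were near background and Inha was not. Less RNA per cell and fewer cells of a type cannot be told apart in such whole-tissue RNA.

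**Figure D1:**
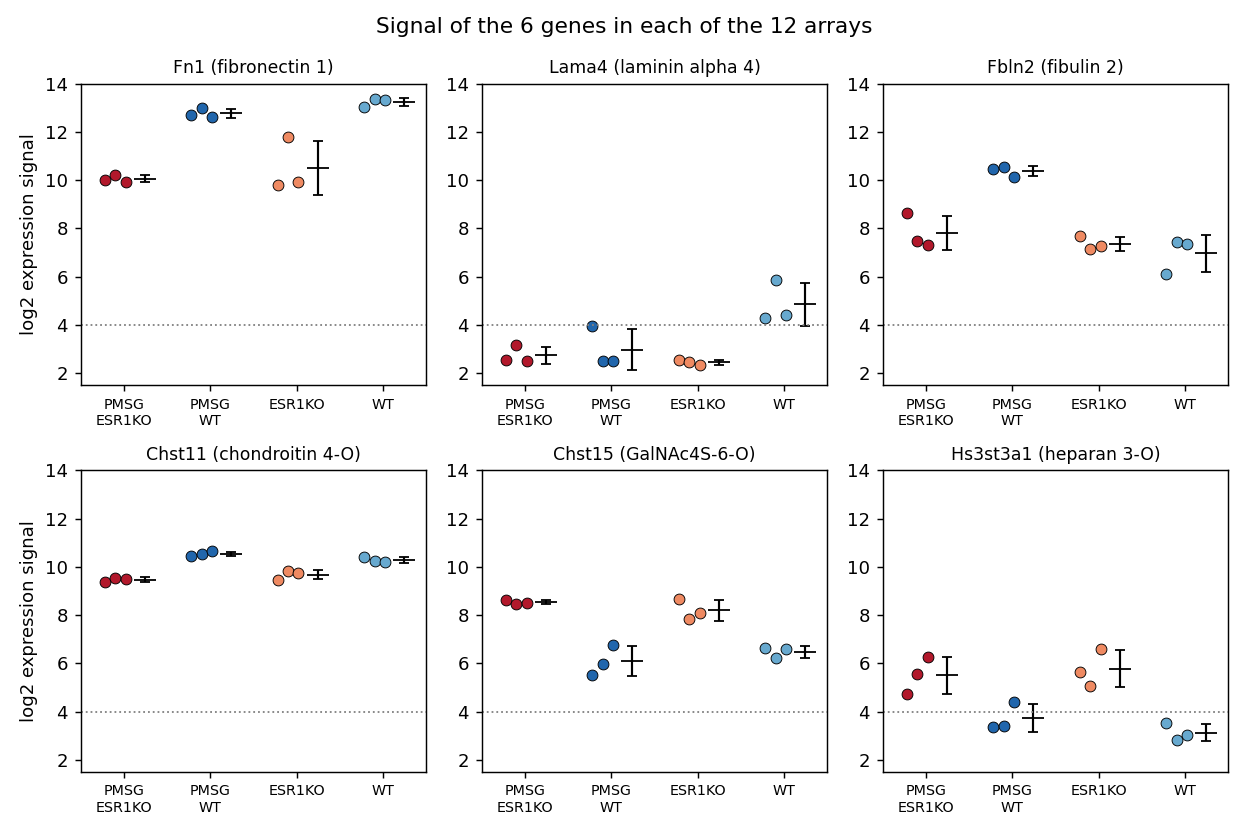
Log2 expression signal (vertical axis) of each gene in the 12 arrays, by group (horizontal axis). Circles are single arrays, the dash and bar beside them are the mean and SD of 3 arrays, and the dotted line at 4 marks the upper limit of the near-background range. Fn1 and Chst11 were lower, and Chst15 and Hs3st3a1 higher, in all 6 ESR1KO arrays than in all 6 WT arrays.

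In PMSG-treated ESR1KO against PMSG-treated WT oviducts, 5 of the 6 genes were called. Chst15 and Hs3st3a1 were higher and Fn1, Fbln2 and Chst11 lower, while Lama4 was not called. Over all 45101 rows 4.48% were called, 2.76% higher and 1.72% lower. Among the 1997 located rows, which the study had listed as changed, the share was 48.3%. In untreated ESR1KO against WT oviducts, 4 genes were called: Chst15 and Hs3st3a1 were higher and Fn1 and Lama4 lower, where 18.1% of located rows were called, 9.11% higher and 9.01% lower. In PMSG-treated WT against WT oviducts only Fbln2 was called, as higher, against 0.251% of all rows, 0.177% higher and 0.0732% lower. None of the 6 was called between PMSG-treated ESR1KO and untreated ESR1KO, where 0.1% of located rows were, nor for the genotype by PMSG interaction, where 0.651% were. At an unadjusted p under 0.05 in limma the counts were 0 and 3 of 6, and the unmoderated linear model also called none. Adjusted p-values in comparisons that use untreated ESR1KO are upper bounds, so those comparisons can miss calls. The groups did not overlap for 5 genes with PMSG (2 higher, 3 lower) between genotypes, against 11.5% of all rows higher and 8.08% lower. They did not overlap for 5 genes without PMSG (2 higher, 3 lower), against 42.7% of located rows higher and 35.8% lower. Between PMSG-treated WT and WT they did not overlap for 4 genes (2 higher, 2 lower), against 5.21% and 8.32% of all rows. No gene separated PMSG-treated ESR1KO from untreated ESR1KO, while 14.6% of located rows did so as higher and 6.91% as lower. Nothing about the genes is read from these shares, since the same comparisons chose them. The 4 untreated calls became 0 without ESR1KO replicate 3, WT replicate 2 or WT replicate 3, and the Fbln2 call in WT was lost without WT replicate 2 or 3 or PMSG-treated WT replicate 1 or 2. The Hs3st3a1 call with PMSG was lost in 10 of the 16 alternative fits, while the other 4 held in all of them. Comparisons that share a group of arrays, such as the 2 that use PMSG-treated WT, are not independent of each other.

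**Figure D2:**
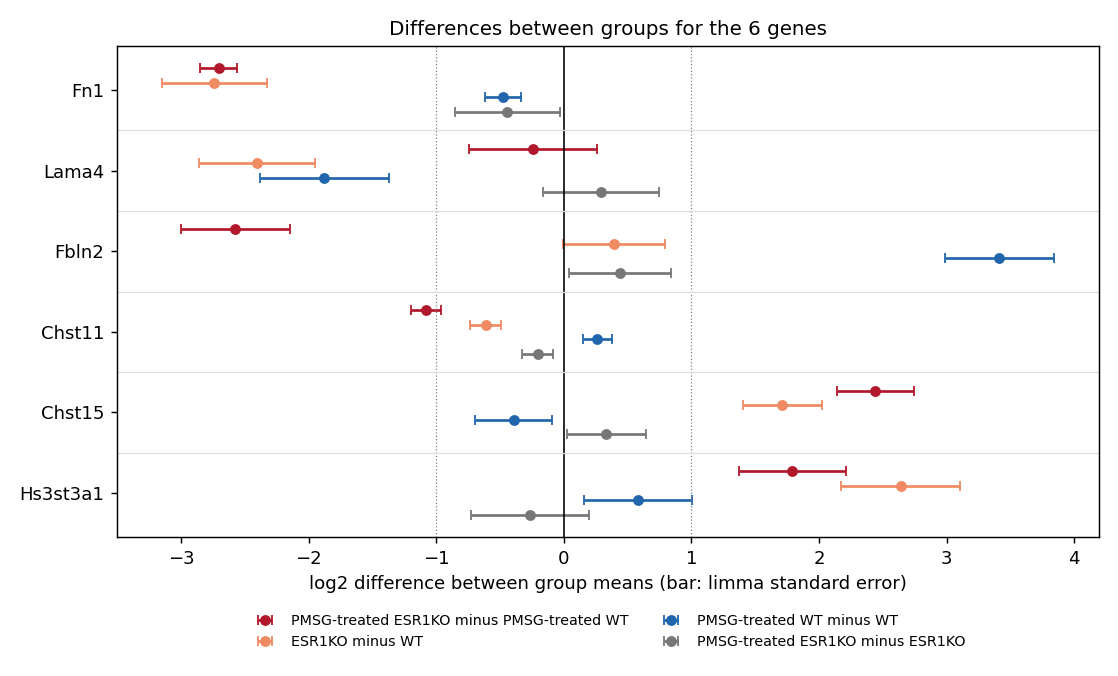
Log2 difference between group means (horizontal axis) for each gene, with bars for the limma standard error and 3 arrays per group. Dotted lines mark a 2-fold difference. Fn1 has both genotype differences near -2.7, and Fbln2 has its widest difference, 3.41, between PMSG-treated WT and WT.

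Fn1 encodes the fibril-forming protein that cells grip through integrins. Its signal was 10.00, 10.23 and 9.94 in PMSG-treated ESR1KO oviducts, against 12.71, 12.98 and 12.61 in PMSG-treated WT oviducts. The untreated arrays had 9.79, 11.79 and 9.92 in ESR1KO and 13.03, 13.36 and 13.33 in WT. Every ESR1KO array lay below every WT array, and the second untreated ESR1KO array stood nearest to WT. The difference was -2.71 (SE 0.14) with PMSG, or 6.53-fold lower, and -2.74 (SE 0.41) without it, or 6.68-fold lower. Without the second untreated ESR1KO array the untreated difference was -3.38. A further Fn1 probe set, which could be read in the untreated ESR1KO arrays alone, gave 7.82, 10.05 and 6.91, so the same array was highest there. Esr1 itself behaved alike: its signal was 10.42, 12.13 and 11.05 in untreated ESR1KO and 12.94, 12.92 and 13.05 in WT. Of the untreated ESR1KO arrays, the second also stood nearest to WT in the located probe sets of Chst11 (9.81), Chst15 (7.83) and Hs3st3a1 (5.07), but not in Lama4. A further Chst15 probe set, read in the untreated ESR1KO arrays alone, gave 7.27, 5.75 and 4.70, so there the third array was lowest. Without the second array the untreated differences of the located probe sets were -0.69 for Chst11, 1.89 for Chst15 and 2.99 for Hs3st3a1. Whether the Esr1 probes lie in the deleted part of the gene was not examined, and the part of the second array in these values was not tested.

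The PMSG differences of Fn1 were under the 2-fold minimum and were not called. PMSG-treated WT was lower than WT by 0.48 on average (SE 0.14), with a gap of 0.05 between the nearest arrays of the groups. PMSG-treated ESR1KO overlapped untreated ESR1KO, with a difference of -0.44 (SE 0.41) that became 0.20 without the second untreated ESR1KO array. By ascending mean, the order for Fn1 was PMSG-treated ESR1KO (10.06 ± 0.15), ESR1KO (10.50 ± 1.11), PMSG-treated WT (12.76 ± 0.19) and WT (13.24 ± 0.18). Only the first pair of neighbours overlapped.

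Lama4 encodes the laminin α chain typical of blood vessel basement membranes. Its located probe set gave 2.55, 3.14 and 2.50 in PMSG-treated ESR1KO and 3.94, 2.48 and 2.50 in PMSG-treated WT. The untreated arrays had 2.52, 2.47 and 2.33 in ESR1KO against 4.28, 5.87 and 4.40 in WT. Only the untreated WT group was above the near-background range, and none of its arrays overlapped the other groups. Untreated ESR1KO was thus lower than WT by a log2 difference of -2.41 (SE 0.46), and PMSG-treated WT differed from WT by -1.88 (SE 0.50). The PMSG difference was not called. PMSG-treated ESR1KO and PMSG-treated WT overlapped, with a difference of -0.24 (SE 0.50) that turned to 0.24 without the first PMSG-treated WT array. By ascending mean, the order was ESR1KO (2.44 ± 0.10), PMSG-treated ESR1KO (2.73 ± 0.36), PMSG-treated WT (2.97 ± 0.84) and WT (4.85 ± 0.89), and neighbours among the first 3 overlapped. Since 3 groups lay near background, the log2 differences do not measure how far the transcript differed.

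A second Lama4 probe set could be read in the untreated ESR1KO arrays alone. It gave 9.37, 9.40 and 9.06 there, well above background, while the located probe set gave no more than 2.52. The Lama4 differences therefore rest on a dim probe set of a gene that a brighter one detects. Some endothelial markers also differed in the untreated comparison. Of 5 such markers 3 were located, and only markers in the study's list of changed genes could be. Pecam1 (4.91 in ESR1KO, 8.15 in WT) and Emcn (7.67 in ESR1KO, 9.24 in WT) were called lower while Kdr was not called. Beside them 9.01% of located rows were called lower untreated and 20.0% with PMSG, so these calls are not independent evidence of an endothelial change. With PMSG, where Lama4 was not called, Pecam1 was again called lower (6.46 in PMSG-treated ESR1KO, 7.72 in PMSG-treated WT) and the other 2 were not. The summed log2 level of the 3 ran from 8.00 to 8.92 in ESR1KO and from 9.86 to 10.28 in WT. With PMSG it ran from 9.25 to 9.53 in ESR1KO and from 9.65 to 9.98 in WT. The part of these markers in the Lama4 result was not tested.

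**Figure D3:**
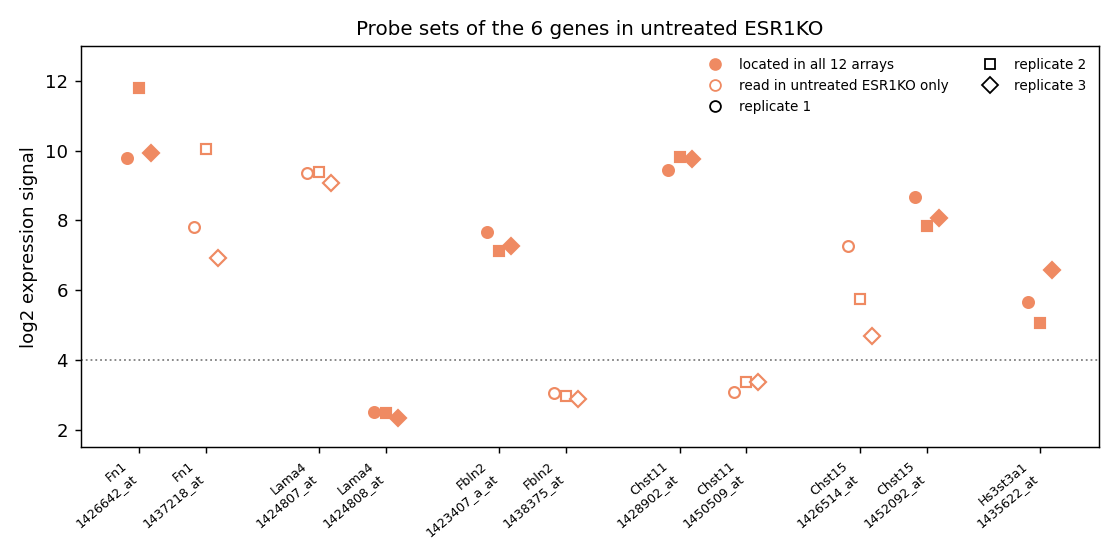
Log2 expression signal (vertical axis) of every probe set of the 6 genes (horizontal axis) in the 3 untreated ESR1KO arrays, with a marker shape for each replicate. Filled markers are the probe sets located in all 12 arrays, open markers those read in untreated ESR1KO only, and the dotted line at 4 is the near-background limit. The located Lama4 probe set lies below it while the other Lama4 probe set averages 9.28, and both Fn1 probe sets are highest in replicate 2.

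Fbln2 encodes a secreted glycoprotein that binds fibronectin, laminins and elastic fibre proteins. Its signal was 8.62, 7.48 and 7.29 in PMSG-treated ESR1KO, against 10.44, 10.55 and 10.13 in PMSG-treated WT. The untreated arrays had 7.66, 7.13 and 7.28 in ESR1KO and 6.09, 7.42 and 7.37 in WT. The 3 PMSG-treated WT arrays stood above all the others, which overlapped. PMSG-treated ESR1KO was lower than PMSG-treated WT by a log2 difference of -2.57 (SE 0.43), or 5.96-fold. PMSG-treated WT was higher than WT by 3.41 (SE 0.43), or 10.7-fold, and the nearest arrays of these groups were 2.71 apart. In ESR1KO the PMSG difference was 0.44 (SE 0.40), with overlap, and it was 0.03 without PMSG-treated ESR1KO replicate 1.

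Without PMSG, Fbln2 differed by 0.40 (SE 0.40) between ESR1KO and WT, a value that became -0.04 without the first WT array. The difference between the PMSG responses of ESR1KO and WT was -2.97 (SE 0.56), the widest such value among the 6 genes, and it was not called. The adjusted p there is an upper bound, so the lack of a call does not show that the responses were alike. By mean, PMSG-treated WT (10.37 ± 0.22) came first, followed by PMSG-treated ESR1KO (7.80 ± 0.72), ESR1KO (7.35 ± 0.28) and WT (6.96 ± 0.76). Neighbours among the last 3 overlapped.

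Chst11 adds sulfate to N-acetylgalactosamine units of chondroitin. Its signal was 9.36, 9.54 and 9.50 in PMSG-treated ESR1KO, against 10.46, 10.54 and 10.64 in PMSG-treated WT. Untreated arrays had 9.45, 9.81 and 9.75 in ESR1KO and 10.40, 10.25 and 10.20 in WT. All ESR1KO arrays were below all WT arrays, and the spread within groups was the narrowest of the 6 genes in PMSG-treated WT. The difference was -1.08 (SE 0.11) with PMSG, or 2.11-fold lower. It was -0.61 (SE 0.12) without PMSG, or 1.53-fold lower, which is under the 2-fold minimum. PMSG-treated WT exceeded WT by 0.26 (SE 0.11), with a gap of 0.06 between arrays, and the ESR1KO groups overlapped with a difference of -0.21 (SE 0.12). Group means ascended in the order PMSG-treated ESR1KO (9.47 ± 0.09), ESR1KO (9.67 ± 0.20), WT (10.28 ± 0.11) and PMSG-treated WT (10.55 ± 0.09), of which the first 2 overlapped.

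Chst15 adds a further sulfate to chondroitin units that are already sulfated, which gives the highly charged chondroitin sulfate E. Its signal was 8.62, 8.48 and 8.49 in PMSG-treated ESR1KO, against 5.53, 5.96 and 6.77 in PMSG-treated WT. Untreated arrays had 8.67, 7.83 and 8.08 in ESR1KO and 6.64, 6.20 and 6.61 in WT. Here every ESR1KO array was above every WT array, the opposite of Chst11. The difference was 2.44 (SE 0.30) with PMSG, or 5.43-fold higher, and 1.71 (SE 0.31) without it, or 3.28-fold higher. Within a genotype, the difference between PMSG-treated and untreated groups was -0.39 (SE 0.30) in WT and 0.33 (SE 0.31) in ESR1KO. Neither was called and the groups overlapped in both, which does not show that PMSG had no effect. The order of means was PMSG-treated ESR1KO (8.53 ± 0.08), ESR1KO (8.20 ± 0.43), WT (6.48 ± 0.25) and PMSG-treated WT (6.09 ± 0.63). The ESR1KO groups overlapped each other, as did the WT groups. A further probe set read only in untreated ESR1KO ranged there from 4.70 to 7.27.

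Hs3st3a1 carries out a late step on heparan sulfate, the sulfation of glucosamine that, among other ligands, viral glycoproteins can bind. Its single probe set gave 4.72, 5.54 and 6.26 in PMSG-treated ESR1KO, against 3.35, 3.41 and 4.38 in PMSG-treated WT. Untreated arrays had 5.65, 5.07 and 6.58 in ESR1KO and 3.54, 2.82 and 3.03 in WT. All ESR1KO arrays were above all WT arrays, though both WT groups had means near background. The log2 difference was 1.79 (SE 0.42) with PMSG and 2.64 (SE 0.46) without it. As both WT groups lay near background, these values do not measure how far the transcript differed. The PMSG difference was 0.58 (SE 0.42) in WT and -0.27 (SE 0.46) in ESR1KO, with overlap in both. By mean, ESR1KO (5.77 ± 0.76) and PMSG-treated ESR1KO (5.50 ± 0.77) came before PMSG-treated WT (3.71 ± 0.58) and WT (3.13 ± 0.37), and each of these pairs overlapped.

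Across all 12 arrays, 2 of the 6 genes were higher and 2 lower in every ESR1KO array than in every WT array. The same held for 34.9% of located rows as higher and 25.4% as lower. As a description, with groups shared by all points, Fn1 correlated with Chst11 (Pearson r = 0.90) and inversely with Chst15 (r = -0.92) and Hs3st3a1 (r = -0.91) over the 12 arrays. Chst11 and Chst15 ran opposite (r = -0.93). Fn1 and Fbln2 had r = 0.24.

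Among the 1827 located rows with a gene name, those most like Fn1 were Ano4, Mlc1 and Abhd12 (r of 0.985 to 0.989). For Chst11 they were Bcat1, Enah and Slc25a5 (0.978 to 0.983), and for Chst15 Slc22a21, Prrg3 and Lrp4 (0.979 to 0.987). Golm1, Esyt3 and Cyth3 were most like Hs3st3a1 (0.966 to 0.971). Lama4 was nearest to Gjb1, Gtf2i and Ppp1r2 (0.949 to 0.964), and Fbln2 to Klk1b1, Antxr1 and Anln (0.922 to 0.928). These r values follow the same 12 arrays and 4 groups.

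Genes of the surrounding pathways were read from lists, and only those in the study's list of changed genes could be located in all arrays, so their counts are not independent evidence of a direction. Counts are for PMSG-treated ESR1KO against PMSG-treated WT unless stated, beside 28.3% of located rows called higher and 20.0% lower. Of 16 integrin subunits, which include those of fibronectin receptors, 5 were located and 2 were called, both lower: Itgb3 (-2.50) and Itga8 (-1.50). PMSG-treated WT also exceeded WT in Itga8 (8.31 against 5.61). Itgb3 and Itga8 were not called between untreated ESR1KO and WT. There Itgb3 had a difference of -1.69 and its groups did not overlap, while those of Itga8 did (-0.18). Itgb5 went the other way, by 0.98 with PMSG and 0.85 without it. Its folds, 1.98 and 1.81, were under the 2-fold minimum, and every ESR1KO array lay above every WT array.

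Of 15 laminin chains and basement membrane glycoproteins, 6 were located. Here 5 were called higher and none lower. Among them were the laminin linkers Nid2 (1.72) and Nid1, the heparan sulfate proteoglycan Agrn (1.41), the integrin ligand Npnt (1.26) and the laminin β chain Lamb2 (1.11). None was called in untreated ESR1KO against WT. Of the 5, Npnt was lower there (-0.60), opposite to its sign with PMSG, and Nid2, Agrn, Lamb2 and Nid1 were higher (0.48 to 0.98). Only for Nid1 did the untreated groups overlap. The fibulin and elastic fibre list had 7 of 18 located, 4 of them higher and 1 lower. Fbln1 (2.38), Efemp1 (2.04) and the TGF-β binding proteins Ltbp2 (1.94) and Ltbp3 were higher, so the sign of Fbln1 was opposite to that of Fbln2. Emilin2 was called lower, with means of 3.47 in PMSG-treated ESR1KO, against 7.04 in PMSG-treated WT, and since the first lay near background the size of its difference was not measured.

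The sulfation lists had few located members beside the 3 sulfotransferases. The chondroitin list had 1 of 14, the chain polymerase Chsy1, which was not called. Its difference with PMSG, -0.66, was under the 2-fold minimum although the groups did not overlap, while the untreated groups did (-0.17). The heparan sulfate list had 3 of 22. Glce, which epimerizes glucuronic acid in the chain, was higher with PMSG (1.23) and without it (1.06). Hs6st1 (1.14 with PMSG, 0.86 without it) and Hs3st1 (-0.77 and -0.55) were not called. The genotypes did not overlap for either gene in either comparison. None of 7 other carbohydrate sulfotransferases was located. Rows that were not located give no value here, which does not show that they were unchanged.

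All 8 located proteoglycan core proteins, of 25, were called, 4 higher and 4 lower. Fibromodulin (Fmod), which binds collagen, averaged 9.21 in PMSG-treated ESR1KO, against 5.53 in PMSG-treated WT, a difference of 3.68. The cell-surface heparan sulfate carrier Gpc1 was higher by 2.18. Aspn (-2.95) and Omd (-2.93), small leucine-rich proteins, were lower. In untreated ESR1KO against WT, Fmod and Gpc1 were again called higher and Lum lower. Of 18 other matrix glycoproteins 3 were located, with Matn2 (2.27) called higher and Postn (-1.02) lower.

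**Figure D4:**
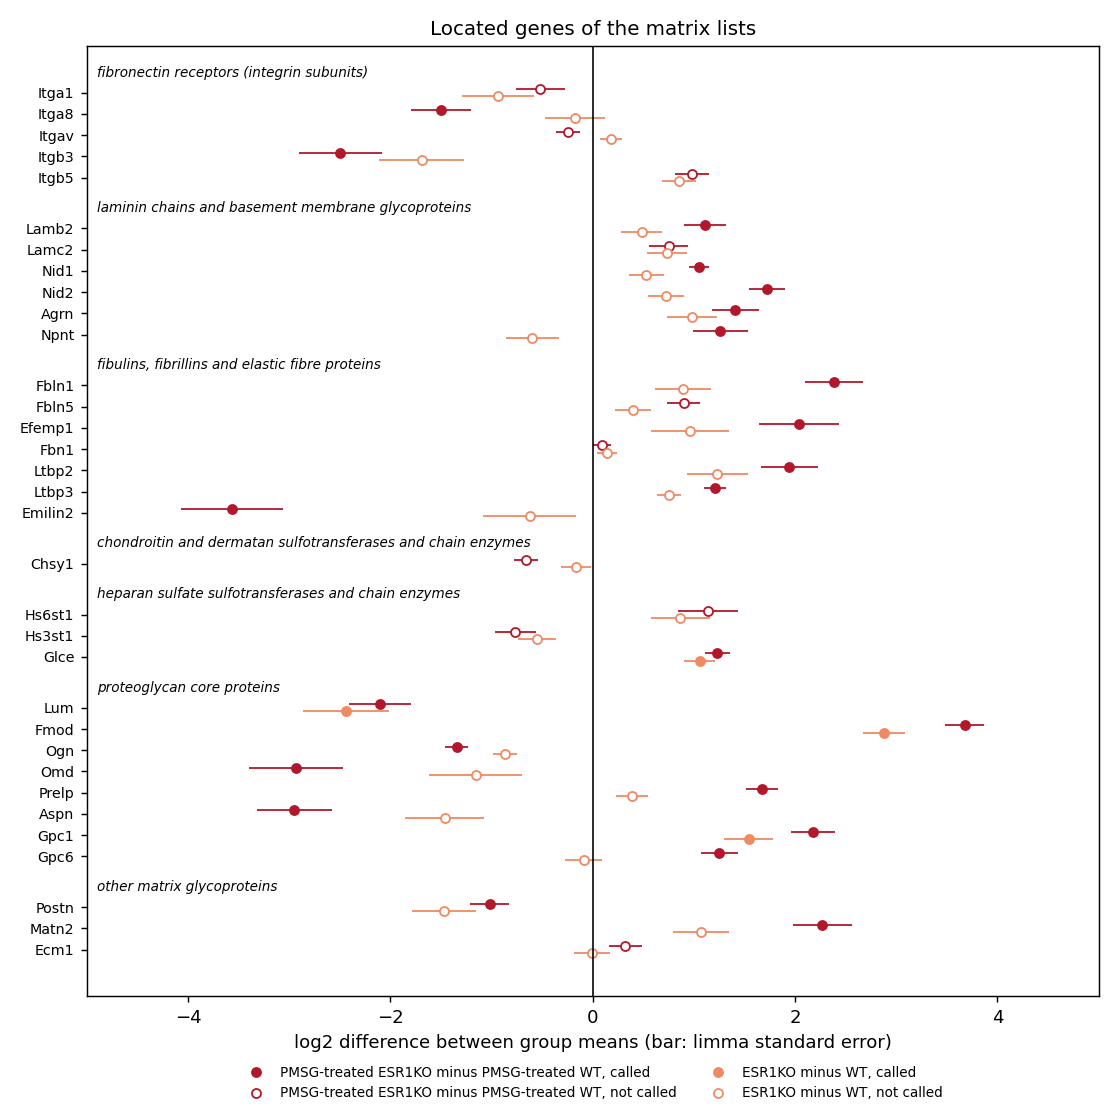
Log2 difference between group means (horizontal axis, bars are limma standard errors, 3 arrays per group) for the located genes of each list (vertical axis). Filled points were called and open points were not. The laminin and basement membrane list had 5 of 6 located genes called higher in PMSG-treated ESR1KO, and the proteoglycan cores had 4 called higher and 4 lower.

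Stromal fibroblasts make much of this matrix. Of 6 stromal markers 3 were located. In PMSG-treated ESR1KO against PMSG-treated WT, Pdgfra was called higher (1.49) and Lum lower (-2.10), and Col1a2 was not called (-1.13). The summed log2 level of the 3 spanned 13.78 to 13.97 in PMSG-treated ESR1KO, against 12.88 to 13.22 in PMSG-treated WT. That sum was carried by Pdgfra, which averaged 13.76 in PMSG-treated ESR1KO, against 12.27 in PMSG-treated WT, while the other 2 differences were negative. Untreated, Pdgfra was again called higher in ESR1KO and Col1a2 and Lum lower, and the sum ran from 13.04 to 13.73 in ESR1KO and from 12.99 to 13.26 in WT. The located Col1a2 probe set was a dim one, with means of 4.41 in ESR1KO and 6.75 in WT, and a brighter Col1a2 probe set averaged 14.01 in untreated ESR1KO, where alone it could be read. Of 6 smooth muscle and 5 ciliated cell markers none was located. The single located markers of secretory cells (Muc1), leukocytes (Csf1r) and mesothelium (Lrrn4) were each called higher in the PMSG-treated ESR1KO group, PMSG-treated WT being the group compared. Markers could be located only if the study had listed them as changed. Of located rows, 28.3% were called higher with PMSG and 9.11% untreated, so a single marker does not show that its cell type differed. Untreated, Lrrn4 was again called higher in ESR1KO than in WT (1.39), and Muc1 (1.54) and Csf1r (0.61) were not called although their groups did not overlap. The part of these cell types in the results was not tested.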

How the data were processed

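The authors hybridized oviduct RNA to Affymetrix mouse arrays and, per the labels and methods, processed the scans in Partek 6.6: background was corrected by GC-RMA, arrays were quantile normalized and probes summarised by median polish. The deposited values are log2 signals per probe set. Only the 3 columns of untreated ESR1KO follow the table's probe set names, while the remaining 9 have a different common order of rows: columns of untreated ESR1KO correlated with the other 9 at r of -0.146 to -0.123, against 0.959 to 0.997 among those 9. Rows were therefore located through the study's supplementary list of changed genes. Its fold changes and p-values served only as a row key, and none is printed. All 1997 rows were located, and 1840 of the 1847 with a single probe symbol (99.6%) carried the listed gene. For 35 rows a second untreated ESR1KO row also lay within 0.298%, the largest p-value mismatch accepted. Lama4 was among them, with mismatches of 0.0011% for the row taken and 0.15% for the second. Each of the 6 genes carried its own symbol.

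PMSG-treated groups and WT were fitted with limma 3.58.1 in R 4.3.3 (lmFit, and eBayes with a variance trend) over all rows of the 9 columns. Comparisons with untreated ESR1KO used the located rows of all 12 arrays with the prior of that fit (2.87 degrees of freedom), and p-values adjusted as for all 45101 rows, which gives an upper bound. The limits for a call were 0.05 on the adjusted p and, except for the interaction, a 2-fold difference. The number of arrays limits precision. The p-values set each difference against the spread between pools of mice, estimated over all fitted arrays and moderated by the prior. The fits were tested on simulated data. Alternatives were: no variance trend, an unmoderated model, a mean signal of at least 4, repeated quantile normalization, dropping the fold minimum, a replicate block, a fit of the 6 arrays alone, and a fit without each array. The genes and lists were chosen with earlier results of these data known. Named besides the 6 genes were up to 4 called genes per list with the widest difference between the PMSG-treated genotypes, and the 3 rows most correlated with each gene. Itgb5, Nid1, Ltbp3, Lum, Hs6st1, Hs3st1 and Chsy1 were named after their values were seen. No column belonged to an unmapped sample.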

Additional observations from a re-analysis of the deposited data

How the results depend on the processing

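None of the 6 genes changed sign in a called difference under any alternative. The 5 called in PMSG-treated ESR1KO against PMSG-treated WT stayed 4 to 5 in every alternative, and the gene lost was Hs3st3a1. The 4 called in untreated ESR1KO against WT became 0 in the unmoderated model and 0 with only the 6 arrays compared, and 0 to 4 when an array was left out. They were 0 without ESR1KO replicate 3, WT replicate 2 or WT replicate 3, and 1, Fn1, without ESR1KO replicate 1 or WT replicate 1. By gene, this untreated call was lost for Lama4 in 13 of 18 alternatives, for Chst15 in 10 of 19, for Hs3st3a1 in 7 of 19 and for Fn1 in 5 of 19. The single call of PMSG-treated WT against WT, Fbln2, was 0 in the unmoderated model, 0 with only the 6 arrays, and 0 to 1 when an array was left out. It was lost without WT replicate 2 or 3 or PMSG-treated WT replicate 1 or 2. The other 2 comparisons had 0 calls throughout. Lama4 could not be tested at a mean signal of at least 4. Some settings that lost calls use fewer arrays or no variance prior, but others drop no array and keep a prior. Without the variance trend, the calls of Lama4 untreated and of Hs3st3a1 with PMSG were lost. With the replicate block, those of Lama4 and Chst15 untreated and of Fbln2 in WT were lost. The cause was not tested further.

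Replicate numbers were not used as pairs in the main fit, because the paper states that replicates came from different mice. Deviations of same-numbered arrays correlated from -0.114 to 0.265 (median 0.057), over 0.1 in 6 of 18 pairs. Those of arrays with different numbers ran from -0.272 to 0.198 (median -0.036), over 0.1 in 8 of 36 pairs. These values do not settle whether the numbers mark a shared batch. With the number as a replicate block, 2 genes (Fn1 and Hs3st3a1) were called in untreated ESR1KO against WT and 0 in PMSG-treated WT against WT.

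Rows called over the table moved too. PMSG-treated ESR1KO against PMSG-treated WT had 2022, against 1255 unmoderated, 1313 with 6 arrays, 3065 without a fold minimum, and 1248 to 2422 with an array left out. ESR1KO against WT had 362 located rows, against 139 unmoderated, 143 with 6 arrays and 101 to 503 with an array left out. PMSG-treated WT against WT had 113, against 19 unmoderated, 36 with 6 arrays, 46 blocked, 179 at a mean of at least 4, and 41 to 346 with an array left out. PMSG-treated ESR1KO against ESR1KO had 2, against 0 to 6, and the interaction 13, against 1 to 46.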
